A study of Mus musculus with 12 samples.

Results

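Skeletal muscle of Bckdk mutant male mice was compared with that of wild-type males by RNA sequencing. The comparison used the 6 muscle libraries of a series of 12, 3 per genotype, and covered the 16246 of 47730 annotated features whose normalised count reached 10 in 3 or more of these 6 libraries. A normalised count is the number of reads assigned to a gene divided by a factor for the library, so it can be compared between libraries for 1 gene but not between genes of different length. The wild types were Bckdk+/+ and the mutants BckdkM/M, which the sample titles call KO. Both groups were on a C57BL/6J background after at least 10 generations of backcrossing, were 5 to 6 months old, fed freely, and gave gastrocnemius and plantaris muscle combined, taken at ZT6 to ZT7, the middle of the light phase. The allele is not limited to muscle fibres, and whole powdered muscle holds vessels, connective tissue, fat, nerve and blood beside fibres. Libraries are named by letter: wild types A, B and C and mutants D, F and G.

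Bckdk encodes the kinase that phosphorylates the branched-chain ketoacid dehydrogenase (BCKDH) and so switches it off. BCKDH catalyses the committed, irreversible step in the breakdown of leucine, isoleucine and valine, and muscle is the main tissue in which their first step, transamination, takes place. Without the kinase the complex stays active and circulating branched-chain amino acids (BCAA) are low, a state known in mice and in people to affect the nervous system and growth. Leucine is also a signal that activates mTORC1, the kinase that promotes protein synthesis.

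The libraries held 14566523 to 15783292 counted reads, of which mitochondrially encoded genes took 7.65% to 8.21% in 5 libraries and 11.5% in mutant G. Bckdk, the check of the labels, was at 2214, 2421 and 2627 in the wild types and at 14.8, 14.3 and 12.4 in the mutants, and NeoR, a selection gene, was near background in the wild types (2.28, 3.25 and 3.85) and at 251, 208 and 266 in the mutants. The 8 muscle fibre markers had the largest sum of the marker lists in all 6 libraries. It was 1.85e+06 to 2.31e+06 normalised counts in the wild types and 1.23e+06 to 2.03e+06 in the mutants. By correlation of log2 values over the genes tested, mutant D was closer to the wild types (Pearson's r 0.976 to 0.980) than to its own group (0.969 with F and 0.959 with G), whereas F and G correlated at 0.976. The 12 pancreatic islet markers measured summed to 33417 and 31385 normalised counts in F and G, against 13828 to 16210 in the other 4 libraries. The 15 testis germ cell markers summed to 1318 and 1069 in F and G, against 2752 to 3702 in the others. F and G therefore stand apart from D and the wild types, and the pathway lists of the main results are given with their medians in D, F and G separately, as the log2 level minus the wild-type mean. What separates F and G from D was not tested. The labels call the libraries biological replicates; each is taken as 1 animal, by the mouse number in its column.

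Of the 16246 genes, 6 passed the test, 0.0369% of those tested (limma on log2 values, Benjamini-Hochberg adjusted p below 0.05), 5 of them higher (0.0308%) and 1 lower (0.00616%) in mutant muscle. Beside Bckdk and NeoR they were Gdpd3, Gm9967, Rps13-ps1 and Mrpl48-ps. NeoR and Mrpl48-ps entered the test only through their values in the mutants. DESeq2 on the recovered reads called 34 (0.209%). Limma called 497 without mutant D (3.11%), 10 without wild-type B and 3 without mutant F. Before adjustment, 1546 genes (9.52%) had p below 0.05, 521 higher (3.21%) and 1025 lower (6.31%). In 830 genes (5.11%) every mutant value was above every wild-type value, and in 1437 (8.85%) every mutant value was below. These shares are the background against which the counts in gene groups below are read. The lists were chosen with earlier results of these data known, so a share apart from the background is description, not a test. The shares also varied with transcript length, as given below. The median log2 change of all genes was -0.04, and 7227 genes had higher and 9019 lower means in the mutants. A change of more than 2-fold in either direction was found for 533 genes, and in 43 of these the groups did not overlap and the mean was at least 50 (16 higher and 27 lower).

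**Figure D1:**
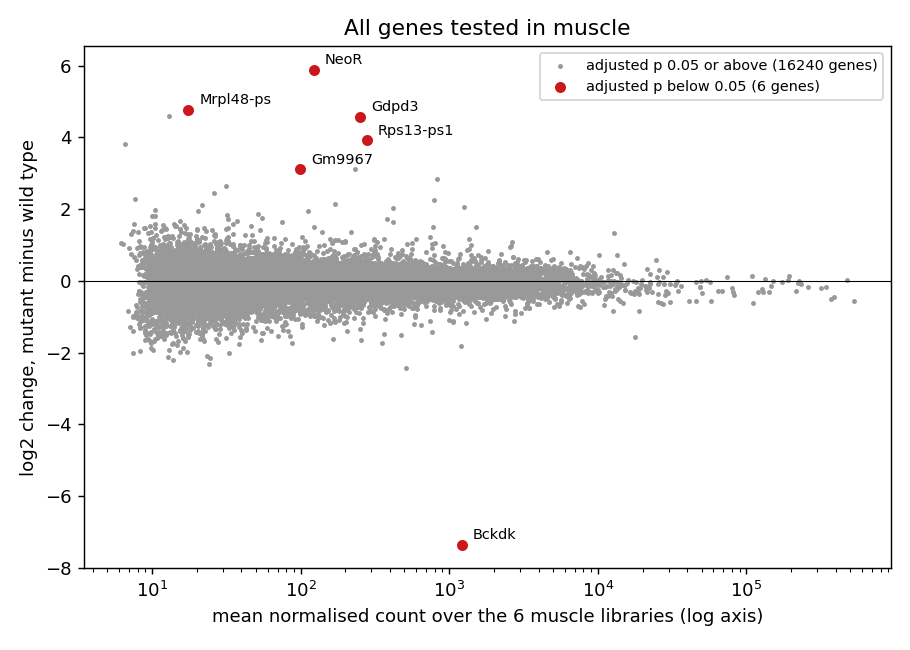
Log2 change between mutant and wild-type muscle (vertical) against the mean normalised count over 6 libraries (horizontal, log axis), with 1 point per gene tested. Only the 6 genes in red had an adjusted p below 0.05, 5 above and 1 below 0, and Bckdk at -7.35 lies far below all others.

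Gdpd3 encodes a lysophospholipase D that makes lysophosphatidic acid from lysophospholipids, and it lies on chromosome 7, 126766334 to 126775649 in GRCm38. It had 25, 10.8 and 24.4 normalised counts in the wild types (A, B, C, in this order here and below) against 637, 412 and 406 in the mutants (D, F, G). Every mutant library was far above every wild type, and D was the highest of the mutants. The means of 20.1 ± 8.03 and 485 ± 132 (SD, n = 3) gave a log2 change of 4.58 (SE 0.32, limma adjusted p = 8.47e-05), and the ratio of the means was 24.1. Gm9967, a transcript of chromosome 7, 126768082 to 126776818, overlaps Gdpd3 on the opposite strand. It was at 26.2, 9.74 and 27 in the wild types against 209, 131 and 192 in the mutants (log2 change 3.12, SE 0.37, adjusted p = 0.0151). The counting is not stated to use strand, so it is not known whether reads of Gm9967 and Gdpd3 were told apart. The call of Gm9967 was lost without wild-type C, mutant F or mutant G. Bckdk lies near both genes, on chromosome 7, 127904082 to 127910221. The part of this nearness to the mutant allele in their values was not tested.

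Rps13-ps1 is a processed pseudogene of Rps13, which encodes a protein of the small ribosomal subunit, and it lies on chromosome 8, 87047689 to 87048226. Rps13-ps1 was at 28.5, 31.4 and 39.8 in the wild types against 668, 441 and 462 in the mutants, so the groups were far apart (log2 change 3.93, SE 0.22, adjusted p = 1.12e-05). Mrpl48-ps, a processed pseudogene on chromosome 4, 88599175 to 88599810 of the mitochondrial ribosomal protein gene Mrpl48, was at 0, 1.08 and 0 in the wild types against 38.8, 41.8 and 23.8 in the mutants (adjusted p = 0.0428). With 0, 1 and 0 reads in the wild types, its fold change has no interpretable size, and leaving out wild-type A or C ended its call. It passed the filter on low values only through the mutants, and its adjusted p is to be read with that limit.

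Pseudogene reads and parent reads differ at few bases. Rps13-ps1 matches Rps13 (its first transcript in GENCODE M21) at 520 of 522 aligned bases without a gap, with the differences T499C and A517G, positions counted from 1 at the 5′ end of that transcript. Mrpl48-ps matches a transcript of Mrpl48 at 605 of 617 aligned bases, with 12 differences. Both differences of Rps13-ps1 fall in the last 90 bases of the coding sequence. That stretch is shown for both genes because within the aligned part the genes differ at these bases alone, which are in capitals.
Rps13: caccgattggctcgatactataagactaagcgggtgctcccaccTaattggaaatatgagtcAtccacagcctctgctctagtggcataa
Rps13-ps1: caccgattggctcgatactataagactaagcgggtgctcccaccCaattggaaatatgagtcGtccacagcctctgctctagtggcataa
A read that lies within the aligned part and covers neither base fits both genes equally. The parent genes lie on chromosome 7, Rps13 at 116331505 to 116334195 and Mrpl48 at 100545751 to 100608301, 11.6 and 27.4 Mb from Bckdk. Rps13 itself was at 1602, 1625 and 2319 in the wild types against 1512, 1941 and 2435 in the mutants, with overlapping groups. Mrpl48 was at 1056, 1244 and 1335 and 1094, 1066 and 906, also overlapping.

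No protein-coding gene other than Bckdk and Gdpd3 passed. Among those that did not, the lowest adjusted p was that of Tmc7, which encodes a transmembrane channel-like protein. Tmc7 is also on the chromosome of Bckdk, chromosome 7, at 118535841 to 118584736. It was at 258, 272 and 217 in the wild types against 54.7, 85.6 and 108 in the mutants (log2 change -1.63, SE 0.24, adjusted p = 0.0779). The groups were well apart, with D lowest, and the gene passed under 5 of 17 alternative settings. Ighm, the heavy chain of immunoglobulin M, was at 2576, 2354 and 2167 and 1415, 1045 and 981 (log2 change -1.06, adjusted p = 0.0779), with all mutants below all wild types. Pla2g7, which encodes platelet-activating factor acetylhydrolase, was at 1149.7, 1395 and 1797 and 769.8, 570.5 and 638 (-1.12, adjusted p = 0.122). Its reads overlap 1700071M16Rik on the opposite strand, whose mean went from 529 to 199.

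Mylk4, a muscle myosin light chain kinase, was among the abundant genes with the largest difference. It was at 24111, 27990.0 and 27147 in the wild types against 11542, 10870.0 and 5734 in the mutants, with G lowest (log2 change -1.56, SE 0.25, adjusted p = 0.122). Its values were lower in each mutant than in any wild type, and it passed under 4 of 17 settings, without D or G among them. Mylk2, the main skeletal muscle myosin light chain kinase, was at 21744, 23754 and 26582 and 17910.0, 13136 and 10191 (-0.84, adjusted p = 0.519). Slc7a2, a transporter of cationic amino acids, was at 1188, 1545 and 1845 and 912, 756 and 718 (-0.92, adjusted p = 0.281). In all 3 genes the wild types were above the mutants without overlap.

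The next genes with lower means span several functions, and each had mutants below all wild types. The DNA polymerase gene Polk was at 499.7, 487 and 497 and 349, 281 and 269 (-0.73, adjusted p = 0.413). The exocyst subunit gene Exoc7 was at 1961, 2071 and 2233 and 1357, 1485 and 1164 (-0.65, 0.45). Tppp, a tubulin-binding protein gene, was at 519, 517 and 485 and 315, 273 and 361 (-0.69, 0.467). Trim12a (-0.92), Teddm2 (-0.68, which lies over the far more abundant Glul on the other strand), Pdzrn3 (-0.62) and Klhl38 (-0.80, overlapped by Gm15943) had adjusted p of 0.467 to 0.519. Asb15, a substrate adaptor of muscle ubiquitin ligases, had a log2 change of -0.74, and Tpx2, a spindle protein gene, one of -1.10. Chac1, a glutathione-degrading enzyme induced by amino acid shortage, was at 665, 2569.9 and 2541 in the wild types against 405, 403 and 603 in the mutants. Wild-type A was close to the mutants and B and C were far above them (-1.82, SE 0.43, adjusted p = 0.519), and without A the gene passed.

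Genes with higher means in the mutants were led by Prg4, the lubricating proteoglycan of joints and tendon. It was at 189, 160.1 and 223 in the wild types against 549.7, 419 and 334 in the mutants, with D highest (log2 change 1.16, SE 0.20, adjusted p = 0.179). Pak1, a kinase that acts on the actin cytoskeleton and in glucose uptake, was at 439, 514 and 564 and 852, 985 and 829.9 (0.82, adjusted p = 0.179). Ankrd1, the stretch-responsive cardiac ankyrin repeat protein, was at 91.1, 97.4 and 146 and 195, 254 and 287 (1.14, 0.386). In each of the 3 genes the lowest mutant was above the highest wild type.

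Srrm4, a splicing regulator of neural microexons, was at 58.1, 59.5 and 64.2 in the wild types against 104, 186 and 262 in the mutants, with G highest (1.49, adjusted p = 0.394). The antisense gene Srrm4os went from a mean of 72.3 to 207, and it is not known whether the counting separated reads of the pair. Chrnb1, a subunit of the muscle acetylcholine receptor, was at 369, 428 and 434 and 616, 635 and 655 (0.63, 0.45). Casq2, the calsequestrin of slow fibres and heart, was at 274, 346 and 272 and 474, 458 and 576 (0.76, 0.45). For both, all mutants were above all wild types.

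Ucp2, a mitochondrial carrier gene, was at 356, 329 and 392 in the wild types against 493, 646 and 690.0 in the mutants (0.75, adjusted p = 0.467). Bbc3, a p53 target that promotes apoptosis, was at 36.4, 42.2 and 29.5 and 68.4, 78.4 and 97.4 (1.15, 0.519). The elastic microfibril gene Mfap2 was at 35.3, 42.2 and 34.7 and 75.3, 74.4 and 93.2 (1.09, 0.496). Atf5, a transcription factor of amino acid stress, was at 1044, 1229 and 1352 and 1726, 1752 and 1856 (0.56, 0.519), and Nup62 and Il4i1 overlap it. Myl4, the embryonic and atrial light chain (0.93), Slc50a1, a sugar transporter (0.61), and Dynlt1b, one of several near-identical dynein light chain copies (0.82), had adjusted p of 0.519. Hbb-bs, an adult beta globin gene whose reads can be split with its copies, was at 1316, 1278 and 1297 and 2222, 1744 and 3123 (0.82, 0.519).

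**Figure D2:**
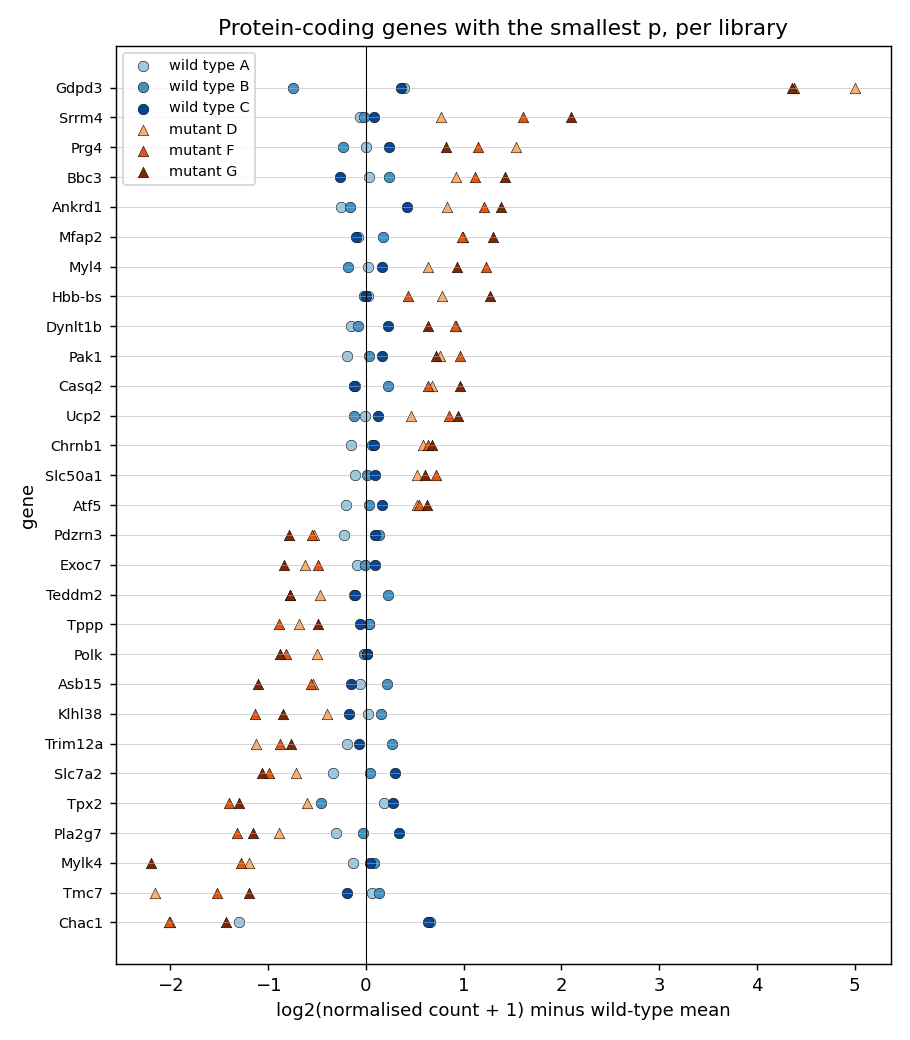
Log2(normalised count + 1) minus the wild-type mean (horizontal) in each of the 6 libraries for the protein-coding genes with the smallest p among those with non-overlapping groups, Bckdk left out. Wild types (blue circles) lie near 0 and mutants (orange triangles) to 1 side in every row, with Gdpd3 at the far right and Chac1 spread widely among the wild types.

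Genes of BCAA breakdown, the pathway that the missing kinase restrains, showed no common direction. Of the 7 other genes tested of the BCKDH complex, its phosphatase, the transaminases and the carrier, 3 had higher and 4 lower means (median log2 change -0.09, with -0.13, -0.21 and 0.11 for D, F and G), and groups overlapped in all. The phosphatase Ppm1k, which reactivates BCKDH, was at 288, 385 and 303 in the wild types against 242, 217 and 345 in the mutants (-0.30, adjusted p = 0.599). Slc25a44, the mitochondrial BCAA carrier, was at 711, 698 and 580.3 and 603, 579.6 and 521. Of the 20 enzymes below BCKDH, 10 had higher and 10 lower means (median 0.01), with Pcca, a subunit of propionyl-CoA carboxylase, at 1183, 1177 and 1037 and 976, 802 and 1029 and Mcee, methylmalonyl-CoA epimerase, at 528, 412 and 606 and 595, 577 and 874. Medians in D, F and G were -0.06, -0.11 and 0.14, so the mutants differed among themselves in direction.

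Genes of leucine sensing and mTORC1 control had lower means in 24 of 30 members (median -0.16), and in 9 members (against 8.85% of all genes) every mutant was below every wild type. None passed. Tsc1, which restrains mTORC1, was at 990.3, 1066 and 939.8 in the wild types against 929, 628 and 515 in the mutants (-0.57, adjusted p = 0.519). Eif4ebp2, which represses translation, was at 1124, 1150.2 and 958 and 986, 631 and 367 (-0.81), with D inside the wild-type range. The list median was -0.09, -0.14 and -0.26 in D, F and G. All 20 cytosolic tRNA synthetases, which load amino acids onto tRNAs, had lower means (median -0.19), and the medians of D, F and G were -0.03, -0.20 and -0.27. Tars, the threonyl enzyme, was at 832, 796 and 983 and 775, 703 and 667. Amino acid transporters numbered 7 higher and 13 lower (median -0.07, with -0.04, -0.13 and -0.13 for D, F and G), with Slc7a8 at 239, 290.0 and 299 and 213, 203 and 202. Genes of the amino acid stress response numbered 14 higher and 13 lower (median 0.05, with -0.02, -0.01 and 0.14 for D, F and G). Of them, 4 were higher without overlap (14.8%, against 5.11% of all genes) and 3 lower (11.1%, against 8.85%).

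Ribosomal protein genes had higher means in most members. For the cytosolic ribosome, 85 of 87 genes were higher and 2 lower (median 0.35). Only 4 were higher without overlap (4.60%, against 5.11% of all genes). Per library the median was -0.15, -0.19 and 0.34 in the wild types against 0.19, 0.28 and 0.57 in the mutants, so wild-type C was above mutants D and F. Rpl36a was at 1102, 990.1 and 1449 and 1467, 1605 and 2176 (0.56, adjusted p = 0.519), and Rpl12 was at 3137, 3680.1 and 5189 and 5054, 6012 and 6997 (0.61). Of 78 mitochondrial ribosomal genes, 59 were higher (median 0.08), and 5 were higher without overlap (6.41%, near the 5.11% of all genes). Mrpl12 was among these 5, at 1385, 1432 and 1624 and 1730.0, 1832 and 1962. The list median was 0.08, 0.08 and 0.11 in D, F and G, and wild-type C, at 0.20, was above all 3 mutants. Respiratory chain genes were higher in 38 of 45 for complex I (median 0.15) and 34 of 42 for complexes II to V (median 0.18), with 1 member higher without overlap in each. For complex I the medians of D, F and G were 0.13, 0.08 and 0.22, all below wild-type C at 0.29. For complexes II to V they were 0.14, 0.08 and 0.27, with C at 0.24 above D and F. Cox7c, a subunit of cytochrome oxidase, was at 3554, 4231 and 5198 and 5209, 5215 and 6853. Of the 13 mitochondrially encoded transcripts, 9 had higher and 4 lower means (median 0.13), and the medians of D, F and G were -0.09, -0.11 and 0.32, so the list was raised in G and not in D or F. Among them, mt-Nd3 was at 278, 375 and 395 in the wild types against 444, 961 and 894 in the mutants (1.07, adjusted p = 0.519), with F and G far above D. In contrast, mt-Nd5 was at 124120, 140630 and 129080 and 124570, 95061 and 102640 (-0.30, adjusted p = 0.704), with D inside the wild-type range.

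Genes of glucose uptake and glycogen had lower means in 21 of 27 members (median -0.31), with medians of 0.00, -0.46 and -0.39 in D, F and G. Irs2, which passes the insulin signal on, was at 607, 729 and 506 in the wild types against 473, 299 and 234 in the mutants (-0.92, adjusted p = 0.519). Tbc1d1, which governs the arrival of the glucose transporter at the membrane, was at 726, 795 and 612 and 568, 375 and 344 (-0.76, 0.519). In both genes D lay just below the lowest wild type and F and G well below. Glycolytic enzymes and regulators were lower in 18 of 26 (median -0.22, and 0.16, -0.26 and -0.36 in D, F and G). Pfkfb3, the source of fructose 2,6-bisphosphate, was at 12181, 20223 and 16520.0 and 10926, 7306 and 8659.8 (-0.85, 0.519), and Pfkfb4 at 906, 875 and 1005 and 825, 680.5 and 528.

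Citric acid cycle enzymes were lower in 15 of 19 (median -0.10, and 0.00, -0.17 and -0.15 for D, F and G), with Suclg2, a subunit of succinyl-CoA synthetase, at 1138, 1246 and 1114 in the wild types against 1015, 1033 and 927 in the mutants. Pyruvate dehydrogenase and its regulators were lower in 11 of 13 (median -0.19, and 0.01, -0.24 and -0.22), with Pdpr, a regulator of the phosphatase, at 1740.4, 2079 and 1376 and 1469, 725 and 404. D lay inside the wild-type range for Pdpr and F and G below it. Transaminases and related nitrogen enzymes were lower in 12 of 14 (median -0.20, and 0.00, -0.25 and -0.26), with Ampd1, the AMP deaminase of fast fibres, at 19979, 20885 and 22540.0 and 19663, 15998 and 13793. In these 3 lists the median of D was near 0 and the lower values were those of F and G. Fatty acid uptake and oxidation genes were higher in 30 of 41 (median 0.13, and 0.00, -0.02 and 0.36 in D, F and G), while Acacb, the acetyl-CoA carboxylase that holds back fat entry into mitochondria, was at 4759, 5479.5 and 4344 and 4289, 2928 and 2336 (-0.65, 0.519).

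**Figure D3:**
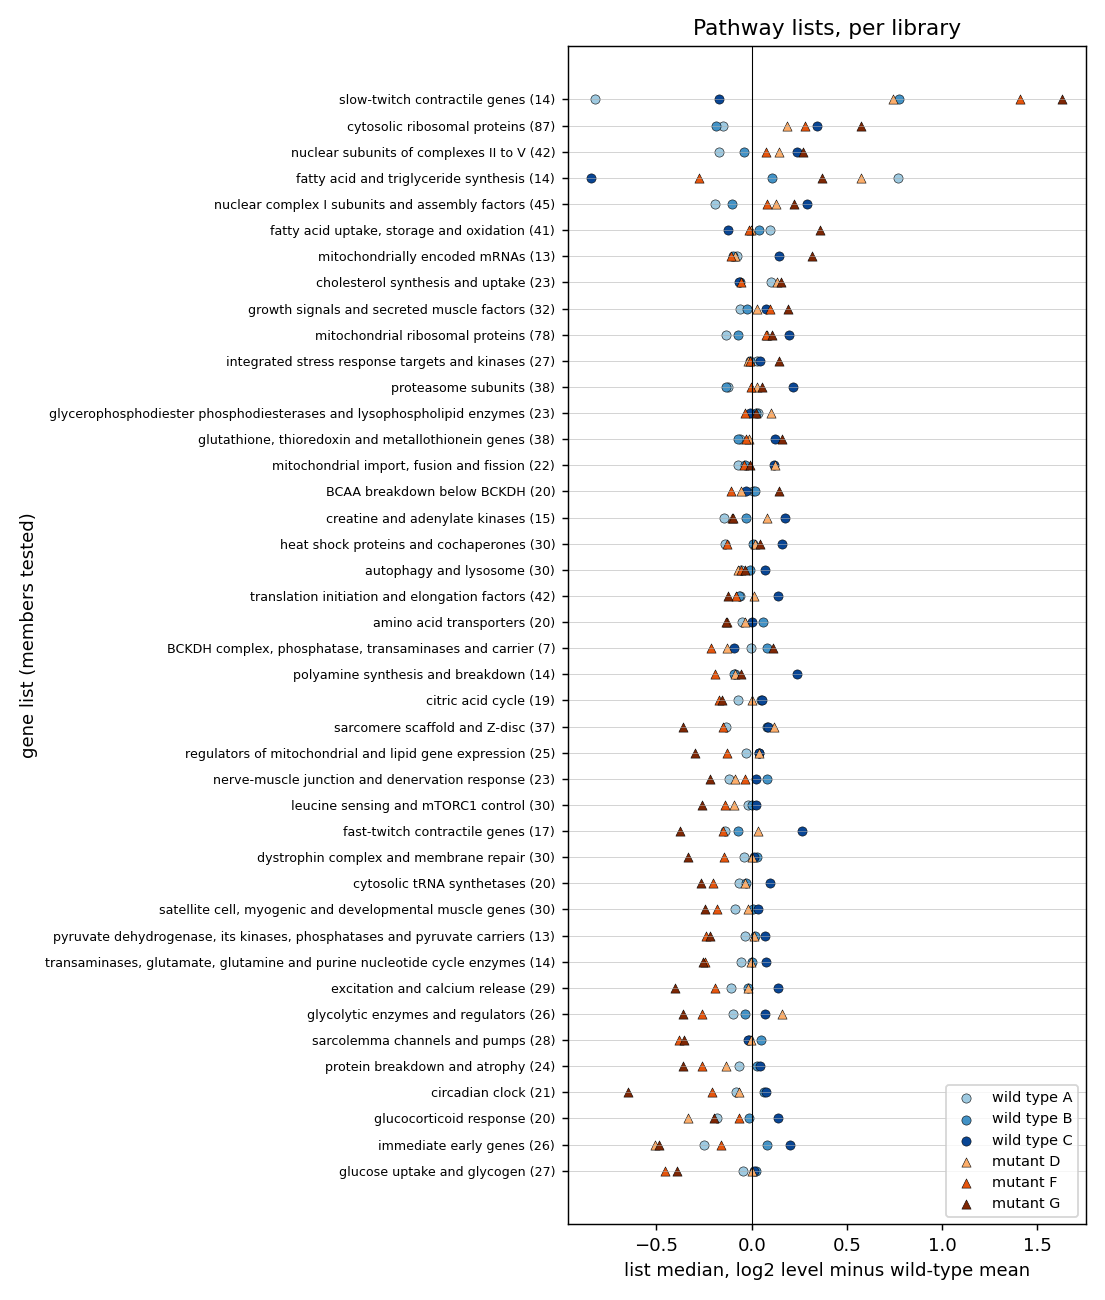
Median over each pathway list of the log2 level minus the wild-type mean (horizontal), 1 point per library, lists ordered by their median change. Slow-twitch genes at the top span from wild-type A at -0.82 to mutant G at 1.63, and in most lists below 0 the mutant D lies near the wild types.

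Slow-twitch contractile genes had higher means in 13 of 14 members (median 1.27). The wild types were not alike, with medians of -0.82, 0.78 and -0.17, and the mutants had 0.74, 1.41 and 1.63, so B was as high as D. Tnni1, slow troponin I, was at 25, 221 and 28.2 in the wild types against 193, 240.4 and 315 in the mutants (2.15, SE 0.64, adjusted p = 0.519). Wild-type B lay inside the mutant range. The gastrocnemius and plantaris are mixed muscles, and the slow-twitch share of a piece of tissue was not measured. Fast-twitch contractile genes were lower in 15 of 17 (median -0.16, and 0.03, -0.15 and -0.38 in D, F and G). Genes of the sarcomere scaffold and Z-disc numbered 14 higher and 23 lower (median -0.12, and 0.12, -0.15 and -0.36 in D, F and G). Among the higher ones Csrp3, a Z-disc protein, was at 139, 401 and 163 and 314, 471 and 709.7 (1.17), with wild-type B again inside the mutant range.

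Genes of excitation, calcium release and the muscle membrane had lower means, led by F and G. Excitation and calcium release genes were lower in 22 of 29 (median -0.20). Cacna1s, the voltage sensor of the T-tubule, was at 17630.0, 17832 and 16866 in the wild types against 16057, 12361 and 7635 in the mutants (-0.60, adjusted p = 0.519). Camk2a, a calcium-dependent kinase, was at 9412, 9949.5 and 9711 and 9068, 5942 and 4359 (-0.65). Channels and pumps of the membrane were lower in 22 of 28 (median -0.25), with Abcc9, a subunit of the ATP-sensitive potassium channel, at 4226, 4547 and 3754 and 3546, 2718 and 2519 (-0.52). Genes of the dystrophin complex and membrane repair were lower in 22 of 30 (median -0.18), with Nos1, the neuronal nitric oxide synthase of the complex, at 1562, 1528 and 1094 and 1246, 620.4 and 318. In D, F and G the medians of these 3 lists were -0.02, -0.19 and -0.40, 0.00, -0.38 and -0.36, and 0.00, -0.14 and -0.33.

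At the nerve-muscle junction, 7 genes had higher and 16 lower means (median -0.14, and -0.09, -0.03 and -0.22 in D, F and G). Beside Chrnb1, Runx1, a transcription factor that rises after denervation, was at 29.6, 50.9 and 41.1 in the wild types against 59.3, 78.4 and 91.2 in the mutants (0.91, adjusted p = 0.519), without overlap. Satellite cell, myogenic and developmental muscle genes were lower in 21 of 30 (median -0.19, and -0.02, -0.18 and -0.24 for D, F and G). Without overlap, 5 were higher (16.7%, against 5.11% of all genes) and 2 lower (6.67%, against 8.85%). Among the higher ones, H19, an imprinted non-coding RNA of growing muscle, was at 2484, 3493 and 2817 and 4382, 4496 and 3842 (0.54, 0.519). Gm27786 and Gm27483, annotated as miscellaneous RNAs, overlap H19 on the other strand, and their means went from 370 to 498 and from 751 to 1127. Secreted growth factors numbered 19 higher and 13 lower (median 0.08, with 0.03, 0.09 and 0.19 for D, F and G), and 6 of the 32 were higher without overlap, against 5.11% of all genes. Ostn, a secreted peptide of muscle and bone, was at 133, 223 and 194 and 375, 227 and 718 (1.13), and Fst, follistatin, which blocks myostatin, was at 184, 123 and 209 and 232, 258 and 431 (0.81).

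Immediate early genes, which switch on within minutes of a stimulus, had lower means in all 26 members tested (median -0.28). Without overlap, 6 were lower (23.1%, against 8.85% of all genes). Per library the medians were -0.25, 0.08 and 0.20 in the wild types against -0.51, -0.16 and -0.49 in the mutants. Wild-type A lay below mutant F, so the order of the medians crosses the groups. Jun was at 1988, 2279.9 and 2167 and 1553, 1574 and 1295 (-0.54, adjusted p = 0.519), without overlap, and Junos overlaps it on the other strand. Fos was at 254, 659 and 720.2 and 78.7, 259.8 and 162 (-1.72, SE 0.44, adjusted p = 0.519), and D was lowest while wild-type A lay between the mutants F and G. Dusp1, a phosphatase that switches off MAP kinases, was at 2107, 2494 and 3034 and 1440.3, 1985 and 1244 (-0.72, 0.519).

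The Fos promoter is shown because Fos had the largest difference among the named genes of this group. The 250 bases before its RefSeq start, chr12:85473640-85473889 in GRCm38.p6 (plus strand), are printed with matches to TGACG, the shorter core of the cyclic AMP response element, and to TATAAA in capitals, both strands searched.
Fos: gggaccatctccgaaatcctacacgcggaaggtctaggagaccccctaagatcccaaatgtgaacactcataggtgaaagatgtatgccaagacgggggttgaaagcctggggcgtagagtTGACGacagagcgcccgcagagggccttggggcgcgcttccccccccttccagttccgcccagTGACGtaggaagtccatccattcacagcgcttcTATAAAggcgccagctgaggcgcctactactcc
TGACG lies 129 and 66 bases before the start and TATAAA 33 bases before it. Of the 21 immediate early genes with a window in the RefSeq table, 12 held TGACG in these 250 bases (57.1%), against 17.9% of 27025 genes, 1 window per gene, the first listed. The full palindrome TGACGTCA was in 2 of the 21 (Btg2 and Dusp1), against 1.62% of all. A match of letters is not evidence of a bound site, and nothing bound was measured.

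Clock genes were lower in 15 of 21 (median -0.27, with -0.07, -0.21 and -0.65 in D, F and G). Per2, a repressor of the clock, was at 236, 309 and 318 in the wild types against 111, 213 and 53.9 in the mutants (-1.39, adjusted p = 0.519), and Hlf, an output transcription factor, at 392, 381 and 417 and 299, 240.4 and 167 (-0.79, 0.519). All samples were taken within a 1 hour window of the light phase. Genes of protein breakdown and atrophy were lower in 16 of 24 (median -0.25, with -0.13, -0.26 and -0.36 for D, F and G). Without overlap, 7 were lower (29.2%, against 8.85% of all genes) and 2 higher (8.33%, against 5.11%). Klf15, a glucocorticoid-responsive regulator of amino acid metabolism, was at 696, 788 and 733 and 587, 466 and 499 (-0.52, 0.519), while Tnfrsf12a, the receptor of TWEAK, was at 195, 192 and 290.1 and 374, 325 and 534 (0.86, 0.519). Ulk1, which starts autophagy, was at 1292, 1659 and 1553 and 1225, 1021 and 823 (-0.56). Of the stress-inducible heat shock genes, Dnajb1 was at 344, 512 and 534 and 217, 330.1 and 257 (-0.78) and Hspa1b at 118, 242 and 252 and 51.3, 105 and 99.5 (-1.24), both without overlap. For the heat shock list as a whole, 10 were higher and 20 lower (median -0.04, with 0.02, -0.13 and 0.04 in D, F and G).

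Markers of cell types other than fibres also differed between libraries, and their part in the results above was not tested. With bulk tissue, fewer cells of a type and less RNA per cell cannot be told apart. Red blood cell markers summed to 2728, 2724 and 2867 in the wild types against 4306, 3623 and 6001 in the mutants, without overlap, and 5 of 5 were higher, Hba-a2 among them (117, 116 and 119 and 174, 181 and 292). Tendon markers were higher in 10 of 10, with Kera, a matrix proteoglycan, at 25, 16.2 and 50.1 and 60.4, 106 and 64.2. The sums, 1666 to 2604 in the wild types and 2404 to 3578 in the mutants, overlap. Fat cell markers were lowest in wild-type C (sum 17293) and highest in mutant G (107660). Cfd, an adipocyte protease, was at 9808, 9209 and 2266 and 10801, 8416 and 36079, so the groups overlap widely.

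Fibroblast and collagen markers were higher in 12 of 14, with Col1a2 at 3439, 3468 and 3722 in the wild types against 4347, 4908 and 4481 in the mutants (0.37, adjusted p = 0.519) and Col3a1 at 5785, 6172 and 5477 and 7306, 7094 and 7267 (0.32). The sums of this list did not overlap, at 30316 to 31096 in the wild types and 32797 to 39438 in the mutants. Macrophage markers were higher in 8 of 10, with C1qa at 449.6, 392 and 434 and 454, 571 and 622 and the scavenger receptor Cd163 in the other direction at 403, 365 and 356 and 270.3, 291 and 189.6 (-0.60). Of the 5 T and B cell markers tested, 3 had higher and 2 lower means (median 0.00). Their sums did not overlap, at 2272 to 2667 in the wild types and 1153 to 1497 in the mutants. Among these markers only Ighm was abundant, and Cd79b and Cd79a were near the detection filter. No neutrophil marker passed the filter. Pancreatic enzyme genes, which muscle does not make, were present at low levels, and 9 of 9 were higher, with sums of 153 to 307 in the wild types and 325 to 481 in the mutants. Genes this near the filter can pass it through the mutants alone, so 9 of 9 is to be read with that limit. Ctrb1 was at 23.9, 30.3 and 53.9 and 102, 49.9 and 95.3, and Cela2a at 13.7, 22.7 and 34.7 and 43.3, 44.8 and 50.8. The islet genes Sst (179.8, 149 and 249 and 185, 591 and 596) and Chga (919.7, 884 and 756 and 832, 1952 and 1774) and the germ cell genes Tnp1 (199, 183 and 246 and 242, 81.5 and 51.8) and Pgk2 (104, 84.4 and 96.3 and 103, 33.6 and 38.3) set F and G apart from D, as given above for their sums. With D as the only mutant, the log2 changes were -0.028 for Sst, -0.031 for Chga, 0.22 for Tnp1 and 0.12 for Pgk2. These genes belong to the lists by which F and G were set apart, so this is no separate result.

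**Figure D4:**
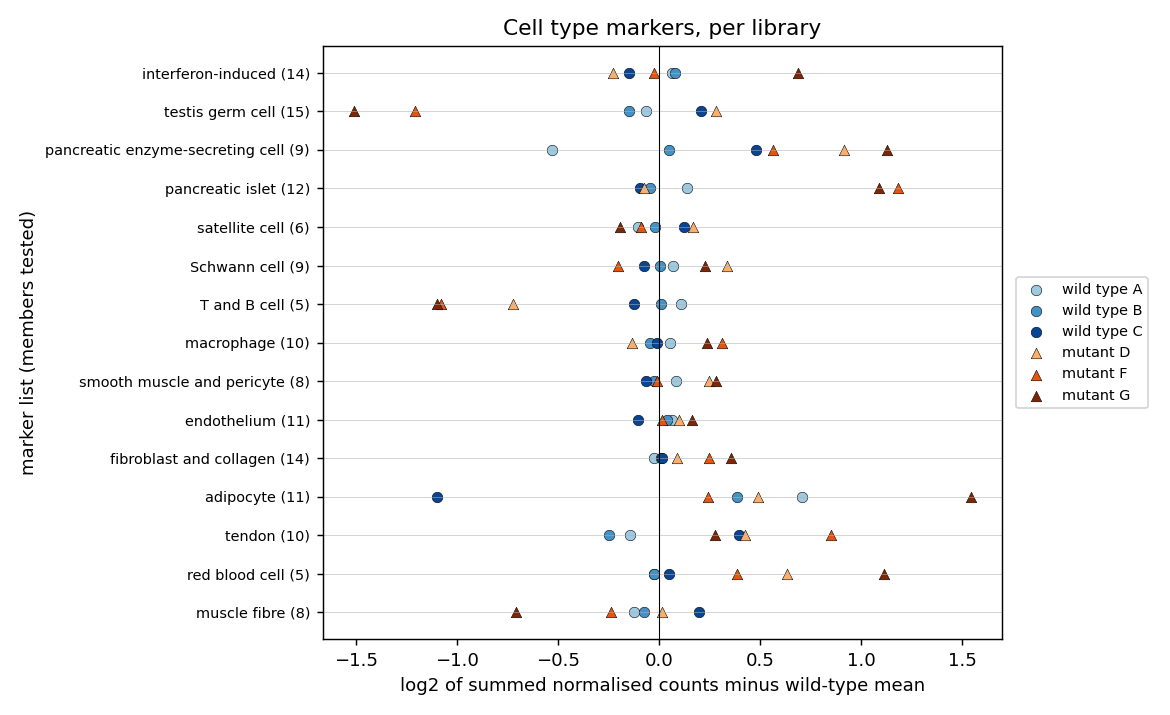
Log2 of the summed normalised counts of each marker list minus the wild-type mean (horizontal), 1 point per library. Mutants F and G sit together for islet (right) and germ cell markers (left), while D is with the wild types. Red blood cell, fibroblast and collagen, and pancreatic enzyme sums are higher in all 3 mutants than in any wild type. T and B cell sums are lower in all 3 mutants.

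Transcript length went with the direction of change. Protein-coding genes with a transcript in GENCODE were split into 5 classes of equal size by their longest transcript. The median log2 change went from 0.08 in the class of shortest genes to -0.14 in the longest. Across 14024 genes in each library, Spearman's rho between length and the level less the wild-type mean came to 0.17 and 0.21 for wild-type A and B, -0.31 for wild-type C, and -0.13, -0.20 and -0.20 for the mutants. Genes are not independent replicates, so no p is given. Wild-type C went in the same direction as the mutants. The wild-type levels are taken from their own mean, so the directions of A, B and C depend on each other. In the class of longest genes, 13.8% of genes were lower and 2.64% higher without overlap, and in the shortest 3.89% and 7.20%. Ribosomal and respiratory chain genes, described above, have short transcripts, and those of excitation and glycogen long ones: the median of the longest transcripts was 1059 bases for the cytosolic ribosome and 4167 for glucose uptake and glycogen. The part of length in those values was not tested. RNA quality is known here only as a minimum quality number of 7.2 for both groups, and its part was not tested.

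**Figure D5:**
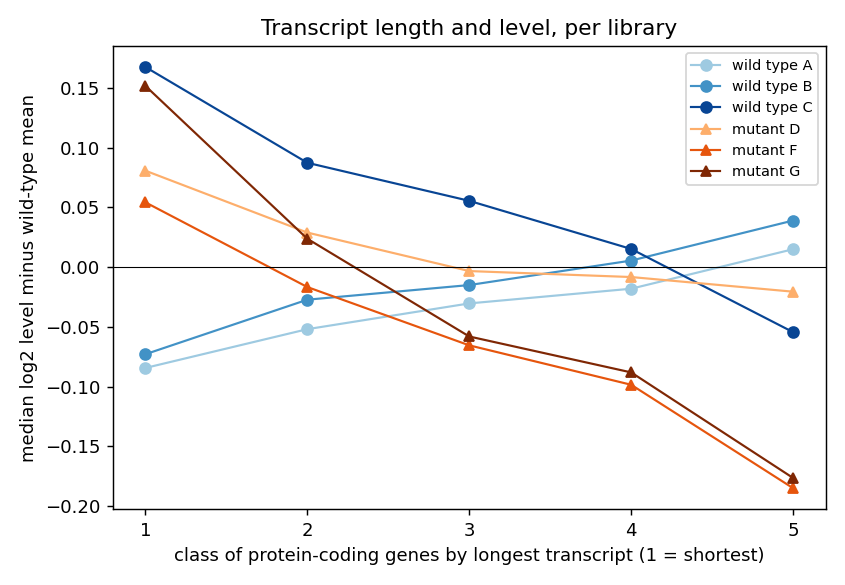
Median log2 level minus the wild-type mean (vertical) in 5 classes of protein-coding genes by transcript length (horizontal, shortest to longest), 1 line per library. Lines of wild-type A and B rise with length, and those of wild-type C and of all 3 mutants fall. Because wild-type levels are taken from their own mean, the rise of A and B is not separate from the fall of C.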

How the data were processed

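PolyA RNA from muscle powder was sequenced in pairs, 150 bases a read, per the labels' protocols. The submitters' processing notes list DESeq2 1.46.0, HTSeq 0.11.2, HISAT2 2.1.0, fastp 0.23.4 and Picard 1.119 without roles, and the build GRCm38.p4. Strand treatment is not given in the sources used here. The authors deposited normalised counts, signal values made as read counts divided by 1 factor per library over muscle and testis together, and regularised log2 (rlog) values that the authors deposited for 27384 features. In each muscle library 100% of values came out as whole reads within 0.001, and edgeR on these recovered reads called 6 genes. The 6 testis columns of each table were not used.

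Log2(normalised count + 1) was compared in R 4.3.3 by limma 3.58.1, two-sided, with moderated variances that follow a trend in the mean, with Benjamini-Hochberg adjustment over the 16246 genes. With 3 libraries against 3, a permutation test of 1 gene cannot go below p = 0.1. Alternatives were other pseudocounts (0.5 and 8), filters and scalings, rlog values, no trend, edgeR 4.0.16, DESeq2 1.42.0 and leaving out libraries. P-values measure the spread between these samples only. Named genes were drawn from all those called, in each direction the 15 protein-coding genes of smallest p (mean of at least 50, groups not overlapping), and the 2 members with the smallest p of each of 58 gene lists. Values are printed for most, not all, of these genes. The members, lists and tests were chosen with earlier results of these data known. Lists are described by counts and medians, with no test. Letters stand for the mouse numbers in the column names, and positions and transcripts come from GENCODE M21 and RefSeq.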

Additional observations from a re-analysis of the deposited data

How the results depend on the processing

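The count of 6 called genes (5 higher and 1 lower) stayed between 5 and 7 with pseudocounts of 0.5 or 8, a mean of at least 50, the median of ratios, TMM, rlog values, no trend or edgeR. It was 14 without a filter (8 higher and 6 lower) and 34 with DESeq2 (21 higher and 13 lower). Leaving out 1 library gave 3 to 497 genes, 2 to 89 higher and 1 to 408 lower. The extremes were mutant F (3) and mutant D (497, 89 higher and 408 lower), and without wild-type B there were 10. Without F and G, with D as a lone mutant assumed to vary like the wild types, 4 genes passed, 2 higher and 2 lower. Of the 6 called genes, Gdpd3, Bckdk and Rps13-ps1 passed under all 17 alternatives. Gm9967 was lost in 5, and Mrpl48-ps in 3 of the 11 that gave it an adjusted p. NeoR and Mrpl48-ps pass the filter only through the 3 mutants and were not tested without 1 of them. Of the other genes with values printed here, 4 changed sign with D as the only mutant: Sst (-0.028), Chga (-0.031), Tnp1 (0.22) and Pgk2 (0.12). These 4 belong to the islet and germ cell lists by which F and G were set apart, so this is no separate result. Genes of other lists, drawn by the same rule but not printed, also changed sign with D as the only mutant. They were Idh2 of the citric acid cycle (0.32 to -0.0067) and the interferon-induced Xaf1 (0.43 to -0.096). The cause of these changes was not tested. Over alternatives the median of all genes moved between -0.06 and 0.01. No paired analysis was possible because the columns carry mouse numbers that the labels do not tie to the replicate numbers. With 3 libraries per group and F and G apart from D, differences below about the spread between mutants are not resolved.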

Other observations

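Amd2, a copy of the polyamine synthesis gene Amd1 whose reads can be split with it, was at 124, 754 and 1881 in the wild types against 127, 75.4 and 119 in the mutants (log2 change -2.42, SE 0.73, adjusted p = 0.519). Wild-type A was at the level of the mutants and C far above, and without A the gene passed. Cholesterol synthesis and uptake genes were higher in 15 of 23 members (median 0.09), fatty acid synthesis genes in 10 of 14 (median 0.15, with 0.77, 0.11 and -0.84 for the wild types), and proteasome genes in 21 of 38 (median 0.04). Interferon-induced genes were higher in 10 of 14 (median 0.14), with the highest sum in mutant G.

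Other lists were mixed or had lower means. Glucocorticoid response genes were lower in 16 of 20 members (median -0.28, and -0.33, -0.07 and -0.20 for D, F and G), with D the lowest. Regulators of mitochondrial and lipid gene expression were lower in 19 of 25 (median -0.13), translation factors in 27 of 42 (-0.05), autophagy and lysosome genes in 19 of 30 (-0.05) and polyamine genes in 10 of 14 (-0.10). Mitochondrial import, fusion and fission genes (12 higher of 22), creatine and adenylate kinases (7 of 15), glutathione, thioredoxin and metallothionein genes (20 of 38) and lysophospholipid enzymes (12 of 23) had medians of 0.02, -0.04, 0.03 and 0.03. Among markers, those of endothelium were higher in 8 of 11, of smooth muscle and pericytes in 7 of 8, of Schwann cells in 8 of 9 and of satellite cells in 3 of 6, and the sums of all 4 lists overlapped between the groups.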
